A study of Danio rerio with 6 samples.

Results

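Collagens are extracellular proteins built from 3 chains wound into a triple helix. Fibrillar types I, III and V assemble into the banded fibrils of skin, bone and tendon, and types II and XI form the thinner fibrils of cartilage with type IX on their surface. Type IV forms the network of basement membranes, which types XV and XVIII bind, and type X is the network collagen of hypertrophic cartilage. In larval zebrafish, basal cells of the epidermis as well as mesenchymal cells make type I collagen, and chondrocytes of the jaw and skull base make type II.

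The genes described here are those whose name in the deposited count table begins with col, a type number, the letter a and a chain number, and that had at least 10 counts in at least 3 libraries. Of 32520 genes in the table, 56 matched the name and all 56 met the count minimum. Those named col4a3bpa and col4a3bpb encode ceramide transporters rather than collagens and were set aside, which left 54 collagen genes. They were grouped by type into 10 fibrillar, 11 cartilage, 9 basement membrane and 24 other collagens, and all 54 were among the 24765 genes tested. The 54 genes carry 52 names, since col6a3 and col19a1 each stand under 2 Ensembl identifiers. Reads of these could have been split between the identifiers, so their levels are uncertain. A further 4 genes called collagens in the Ensembl symbol table carry clone names in the count table and were not included.

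The samples were described as messenger RNA from whole heads at 3 days post fertilization, and the word heads below follows that description. The mutant fish carried the y712 allele of srrm4, a splicing regulator of neural microexons, in homozygous form, and the wild-type fish were their siblings without that allele, as far as the genotype label says. There were 3 mutant and 3 wild-type libraries, each numbered replicate 1, 2 or 3, and the series title asks how far srrm4 mutations alter neural development. Whether several fish were pooled, which of the kits named in the labels (Qiagen RNeasy mini or Zymo Direct-zol) each RNA came from, and what the y712 change does to the protein were not stated in the labels. Nothing in the labels says that replicates came from separate clutches or animals. The p-values below therefore describe the spread among these libraries, which may be partly technical.

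Total counts ranged from 52510621 to 101032166 per library, and levels below are in CPM, counts scaled to library size with TMM factors. The RNA of srrm4 itself was at 18.7, 58.7 and 57.9 CPM in mutant replicates 1, 2 and 3, and at 14.6, 53.6 and 55.1 CPM in wild-type replicates, so gene counts did not separate the genotypes at the altered gene. Neuron markers, all 13 of which passed the filter, summed to between 2426 and 4136 CPM in mutant and between 2411 and 4108 CPM in wild-type heads. Both replicate 1 libraries stood apart from the other 4. Markers of skeletal muscle (19 genes tested) summed to 91562 CPM in mutant and 91227 CPM in wild-type replicate 1, against 16038 to 27866 CPM in the other libraries. Posterior hox genes of groups 9 to 13 (16 of 23 tested), which mark the trunk and tail, summed to 106 CPM in mutant and 117 CPM in wild-type replicate 1, against 14.4 to 21.6 CPM in the others. Collagen values are therefore given library by library.

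Collagen transcripts took 1.83%, 1.66% and 1.31% of all counts in mutant replicates 1, 2 and 3, and 1.8%, 1.3% and 1.5% in wild-type replicates. The col2a1a gene alone, the main chain of type II collagen, received between 162293 and 291523 counts in a mutant library and between 225094 and 274841 in a wild-type library. Even the lowest members were measured in every library: col10a1b, a paralog of the type X gene, ranged from 0.598 to 1.13 CPM in mutants and from 0.69 to 1.36 CPM in wild-type heads. Counts per gene in whole heads cannot tell fewer cells of a type from less collagen RNA per cell.

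**Figure D1:**
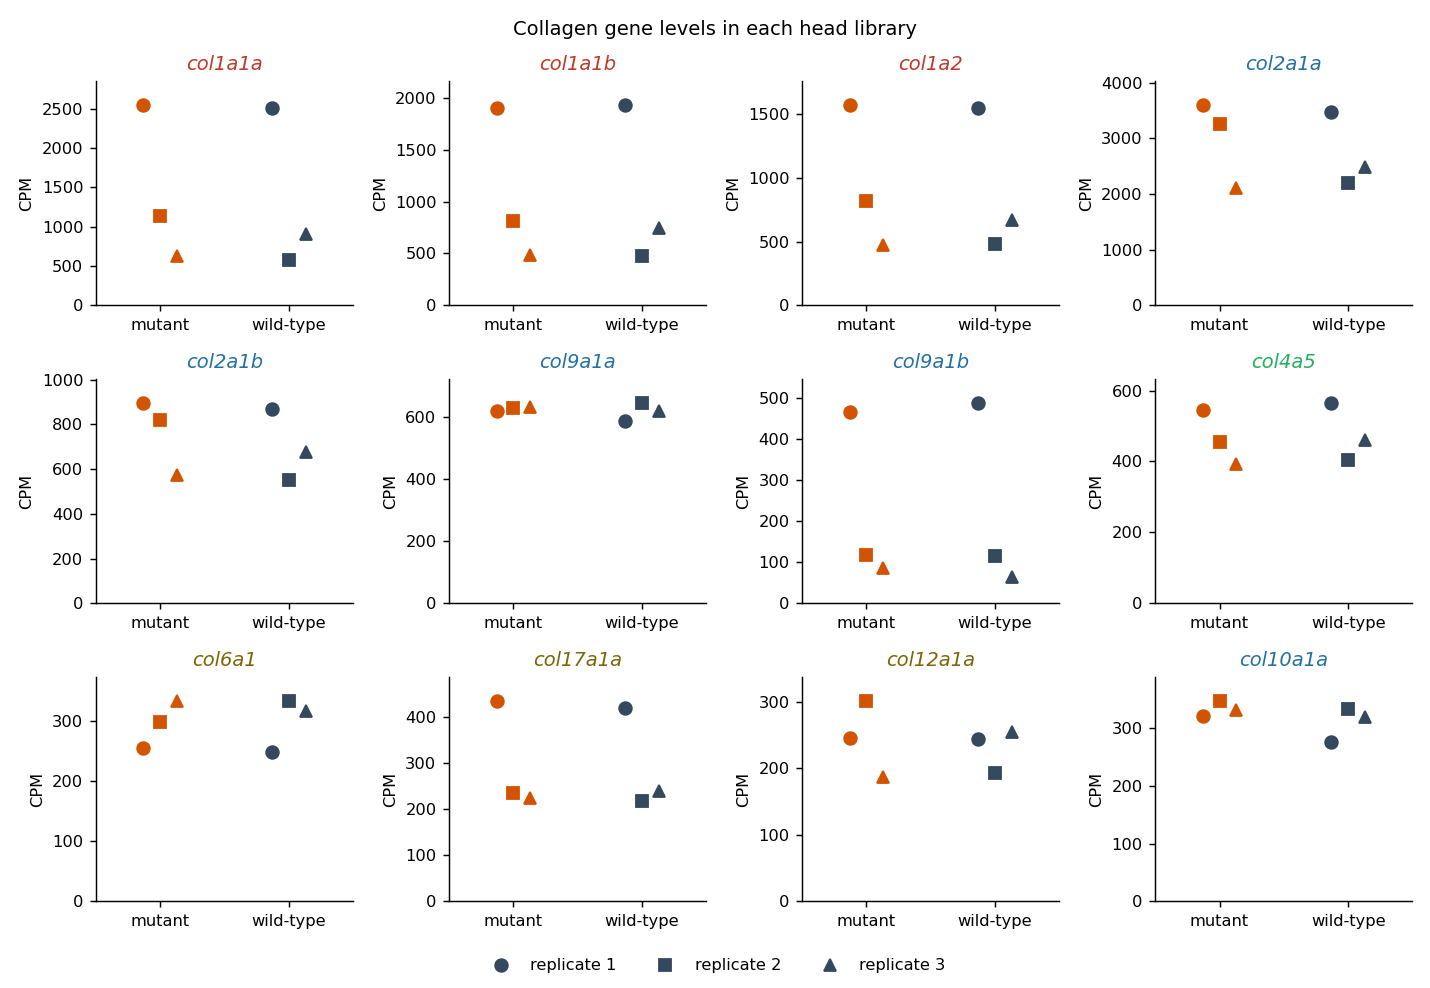
Levels of 12 collagen genes in CPM (counts scaled to library size, vertical axis from 0) in each library, mutant on the left and wild-type on the right of each panel, with circles, squares and triangles for replicates 1, 2 and 3. In the type I panels both circles lie high, while the squares and triangles change places: mutant replicate 2 and wild-type replicate 3 lie above mutant replicate 3 and wild-type replicate 2.

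Mutant and wild-type heads did not differ detectably in any collagen gene. With edgeR's quasi-likelihood test, 0 of 54 collagen genes had an adjusted p under 0.05, where 0.0% of all genes tested did, and the smallest adjusted p among them was 1.0. With the replicate number as a block, edgeR again called 0 of 54 against a background of 0.0%, and the smallest adjusted p was 0.939. At an unadjusted p under 0.05 the blocked fit held 2 of 54 collagen genes (3.7%, against 4.6% of all genes), and the fit without the block held 0 of 54 (0.283% of all genes). DESeq2 and limma-voom, with and without the block, called 0 collagen genes too, while DESeq2 with the block called 0.0569% of all genes. In no collagen gene did all mutant libraries lie above all wild-type libraries (1.09% of all genes did) or all below them (0.945%).

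The size of change that these libraries leave possible depended on the fit. In the blocked fit, log2 fold changes of mutant over wild-type ran from -0.30 (col10a1b) to 0.22 (col8a1b). The 95% intervals lay within 2-fold for all 54 genes and within 1.5-fold for 46. The outermost limits were a ratio of 0.554 for col10a1b and of 1.92 for col1a1a. Without the block the intervals of 39 genes stayed within 2-fold and those of 17 within 1.5-fold. The widest of these, that of col9a1b, ran from a ratio of 0.207 to 4.85, and that of col1a1a from 0.321 to 3.62. Limits within 2-fold for every gene thus rest on the block, whose pairing the labels do not state.

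By type, the median log2 fold change in the blocked fit was 0.06 over the fibrillar genes (8 of 10 higher in mutants), 0.08 over the cartilage genes (10 of 11 higher), -0.03 over the basement membrane genes (4 of 9 higher) and -0.02 over the other collagens (11 of 24 higher). The median over all 54 was 0.04, with 33 higher and 21 lower, and over all genes tested it was 0.00, with 49.6% higher. All 5 type VI genes had a log2 fold change below 0, from -0.26 to -0.02, and all 4 type IX genes one above 0, from 0.02 to 0.13. None of these single values passed the test. Chains of 1 type are often made by the same cells, so members are not independent observations.

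**Figure D2:**
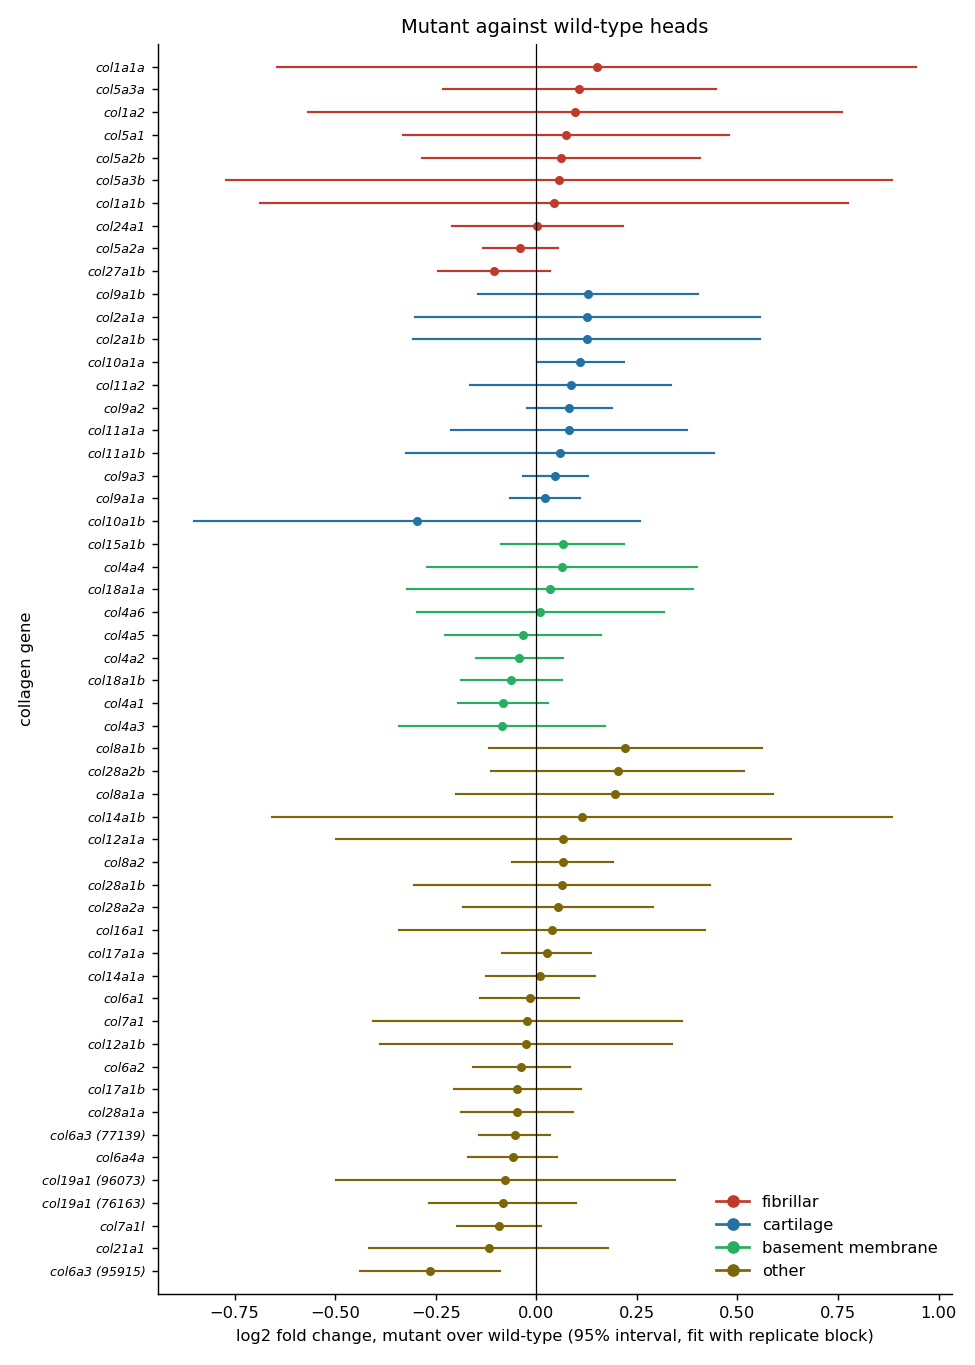
Log2 fold change of mutant over wild-type (horizontal axis) for each of the 54 collagen genes (rows, coloured by type), from the edgeR fit with the replicate block; lines are 95% intervals. Estimates lie between -0.30 and 0.22, and the widest intervals belong to the type I genes, col5a3b, col14a1b, col12a1a and col10a1b.

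The genes with the smallest p in the blocked fit moved little. The col6a3 gene under ENSDARG00000095915, a chain of the beaded filaments of type VI collagen, had 12.9, 23.5 and 30.3 CPM in mutant replicates 1, 2 and 3, against 15.2, 32.0 and 32.5 CPM in wild-type replicates. It was lower in mutants within each replicate number, yet the groups overlapped. Its log2 fold change was -0.26 (95% interval -0.44 to -0.09, edgeR adjusted p = 0.939). Leaving out replicate 1, 2 or 3 in both genotypes, the blocked fit gave -0.272, -0.155 and -0.351, none of them called. Without mutant replicate 1 alone, the fit without the block gave 0.015 (edgeR adjusted p = 1.0). That fit kept wild-type replicate 1, which was low for this gene. The other col6a3 identifier, ENSDARG00000077139, had 87.1, 178 and 185 CPM in mutants and 90.4, 189 and 189 CPM in wild-type heads, a log2 fold change of -0.05 (SE 0.037).

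The type X gene col10a1a, which hypertrophic chondrocytes and, in fish, osteoblasts express, had 321, 346 and 331 CPM in mutant replicates and 275, 333 and 319 CPM in wild-type replicates. Mutants were higher within each replicate number, most in replicate 1, and the groups overlapped. The log2 fold change was 0.11 (95% interval 0.00 to 0.22, edgeR adjusted p = 0.939). A gene named col7a1l, after the type VII collagen of the anchoring fibrils under the epidermis, had 41.6, 27.5 and 27.5 CPM in mutants and 43.3, 29.4 and 29.9 CPM in wild-type heads, a log2 fold change of -0.09 (SE 0.044). In all, 9 of 54 collagen genes (16.7%) were on the same side in all 3 pairs of like-numbered libraries, against 26.9% of all genes.

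The genes with the smallest p without the block were low ones. Besides col10a1b they were col8a1b, a chain of the short-chain network collagen VIII, with 5.65, 3.12 and 4.9 CPM in mutants and 4.78, 3.45 and 3.37 CPM in wild-type heads (log2 fold change 0.24, SE 0.273). The third was col27a1b, a minor fibrillar collagen, with 16.0, 14.5 and 13.8 CPM in mutants and 18.3, 14.8 and 14.7 CPM in wild-type heads (log2 fold change -0.11, SE 0.141). For col2a1a the log2 fold change in the blocked fit was 0.13 (95% interval -0.30 to 0.56). For col4a5, a chain of basement membrane collagen IV, it was -0.03 (95% interval -0.23 to 0.16).

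Many collagen genes differed between replicate numbers. A 2-sided edgeR test across the 3 replicate numbers called 36 of 54 collagen genes (66.7%), against a background of 57.6% of all genes, so the share called was near that of other genes. The direction was less even. Replicate 1 was the higher one in 28 called collagen genes (51.9%, against 28.2% of all genes) and the lower one in 8 (14.8%, against 29.4%). It was over 2-fold above the mean of replicates 2 and 3 in 11 collagen genes (20.4%, against 6.84%) and over 2-fold below it in 2 (3.7%, against 6.84%), both of them col6a3. The median log2 ratio of replicate 1 to replicates 2 and 3 was 0.41 over the collagen genes, 0.42 in mutants and 0.45 in wild-type heads, and -0.01 over all genes. With library totals in place of TMM factors every ratio moved by about -0.33, and 7 collagen genes (col11a1b, col12a1a, col12a1b, col17a1b, col18a1b, col27a1b and col4a4) changed sign, while 10 stayed over 2-fold higher. Without the replicate 1 libraries, 0 collagen genes and 6 genes in all differed between replicates 2 and 3.

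Of the 28 genes called higher, 7 were fibrillar and 12 were other collagens, and of the 11 over 2-fold higher, 5 were of each group. Of the 10 fibrillar genes, 7 were called (70.0%, against 57.6% of all genes), all higher in replicate 1. Among these, col27a1b was lower with library totals in place of TMM factors. The median log2 ratio of the 10 was 1.15, and col1a1a, col1a1b, col1a2, col5a3b and col24a1 were over 2-fold higher. The gene col1a1a, a chain of type I collagen, had 2545, 1133 and 623 CPM in mutant replicates 1, 2 and 3, against 2510, 578 and 902 CPM in wild-type replicates. Its paralog col1a1b had 1896, 811 and 486 CPM in mutants and 1928, 473 and 747 CPM in wild-type heads, and the partner chain col1a2 had 1568, 821 and 476 CPM in mutants and 1548, 481 and 672 CPM in wild-type heads. In all 3 genes both replicate 1 libraries lay above the other 4 and differed little from each other. The replicate 1 ratio was 3.25-fold for col1a1a, 3.13-fold for col1a1b and 2.61-fold for col1a2, with edgeR adjusted p of 0.0203, 0.0172 and 0.0222.

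Type V chains join type I in mixed fibrils, and they did not all follow it. The col5a3b gene, which had the largest replicate 1 ratio among fibrillar genes (3.41-fold, edgeR adjusted p = 0.0205), had 325, 126 and 74.1 CPM in mutants and 318, 69.3 and 122 CPM in wild-type heads. By contrast col5a2b had 14.0, 18.7 and 12.3 CPM in mutants and 11.3, 15.9 and 15.4 CPM in wild-type heads, with an edgeR adjusted p of 0.126. The mutant and wild-type ranges overlapped in both.

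Among cartilage genes, 4 of 11 were called (36.4%), a smaller share than the 57.6% of all genes. All 4 were higher in replicate 1 (28.2% of all genes were called higher): col9a1b, col9a2, col9a3 and col11a1a. The largest ratio of any collagen gene was that of col9a1b, a chain of type IX, with 465, 117 and 86.8 CPM in mutants and 488, 115 and 64.5 CPM in wild-type heads. Replicate 1 was 5.11-fold higher (edgeR adjusted p = 0.000143). Its paralog col9a1a was the steadiest of the 54, with 617, 629 and 631 CPM in mutants and 587, 644 and 619 CPM in wild-type heads, and its highest library was 1.1-fold above its lowest. The col2a1a gene had 3597, 3260 and 2106 CPM in mutants and 3467, 2194 and 2494 CPM in wild-type heads (edgeR adjusted p = 0.106), and col11a1a, a type XI chain, had 1515, 1204 and 905 CPM in mutants and 1412, 947 and 1045 CPM in wild-type heads.

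Basement membrane genes moved less. Of 9, 5 were called higher in replicate 1 (55.6%, against 28.2% of all genes): col4a1, col4a2, col4a5, col18a1a and col18a1b. The gene col4a3 was called lower (11.1%, against 29.4%). With library totals col18a1b turned lower. No basement membrane gene was over 2-fold apart. Of the most widely used chain genes of collagen IV, col4a1 had 78.8, 61.8 and 60.6 CPM in mutants and 83.0, 61.8 and 68.4 CPM in wild-type heads. Its partner col4a2 had 79.3, 50.5 and 57.1 CPM in mutants and 77.9, 54.8 and 58.6 CPM in wild-type heads. For col18a1a, whose protein releases endostatin, the values were 303, 234 and 165 CPM in mutants and 306, 178 and 200 CPM in wild-type heads. The lower one, col4a3, had 6.78, 11.6 and 9.97 CPM in mutants and 8.48, 10.04 and 11.3 CPM in wild-type heads.

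The other collagens split. Of the 24, 50.0% were called higher in replicate 1 and 29.2% lower, against 28.2% and 29.4% of all genes. The 12 called higher in replicate 1 included col17a1a, a transmembrane collagen of epidermal hemidesmosomes, with 436, 236 and 225 CPM in mutants and 420, 218 and 240 CPM in wild-type heads (1.86-fold, edgeR adjusted p = 2.9e-05). They also included col14a1b, a collagen bound to fibril surfaces, with 119, 48.7 and 29.1 CPM in mutants and 109, 26.97 and 45.1 CPM in wild-type heads (3.14-fold, edgeR adjusted p = 0.0204). The 7 called lower were col14a1a, col8a2 and all 5 type VI genes, whose median log2 ratio was -0.54. The type VI gene col6a1 had 256, 299 and 334 CPM in mutants and 249, 334 and 317 CPM in wild-type heads (edgeR adjusted p = 0.00447). Both replicate 1 libraries lay below the other 4 in col6a1 as well as in both col6a3 genes.

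**Figure D3:**
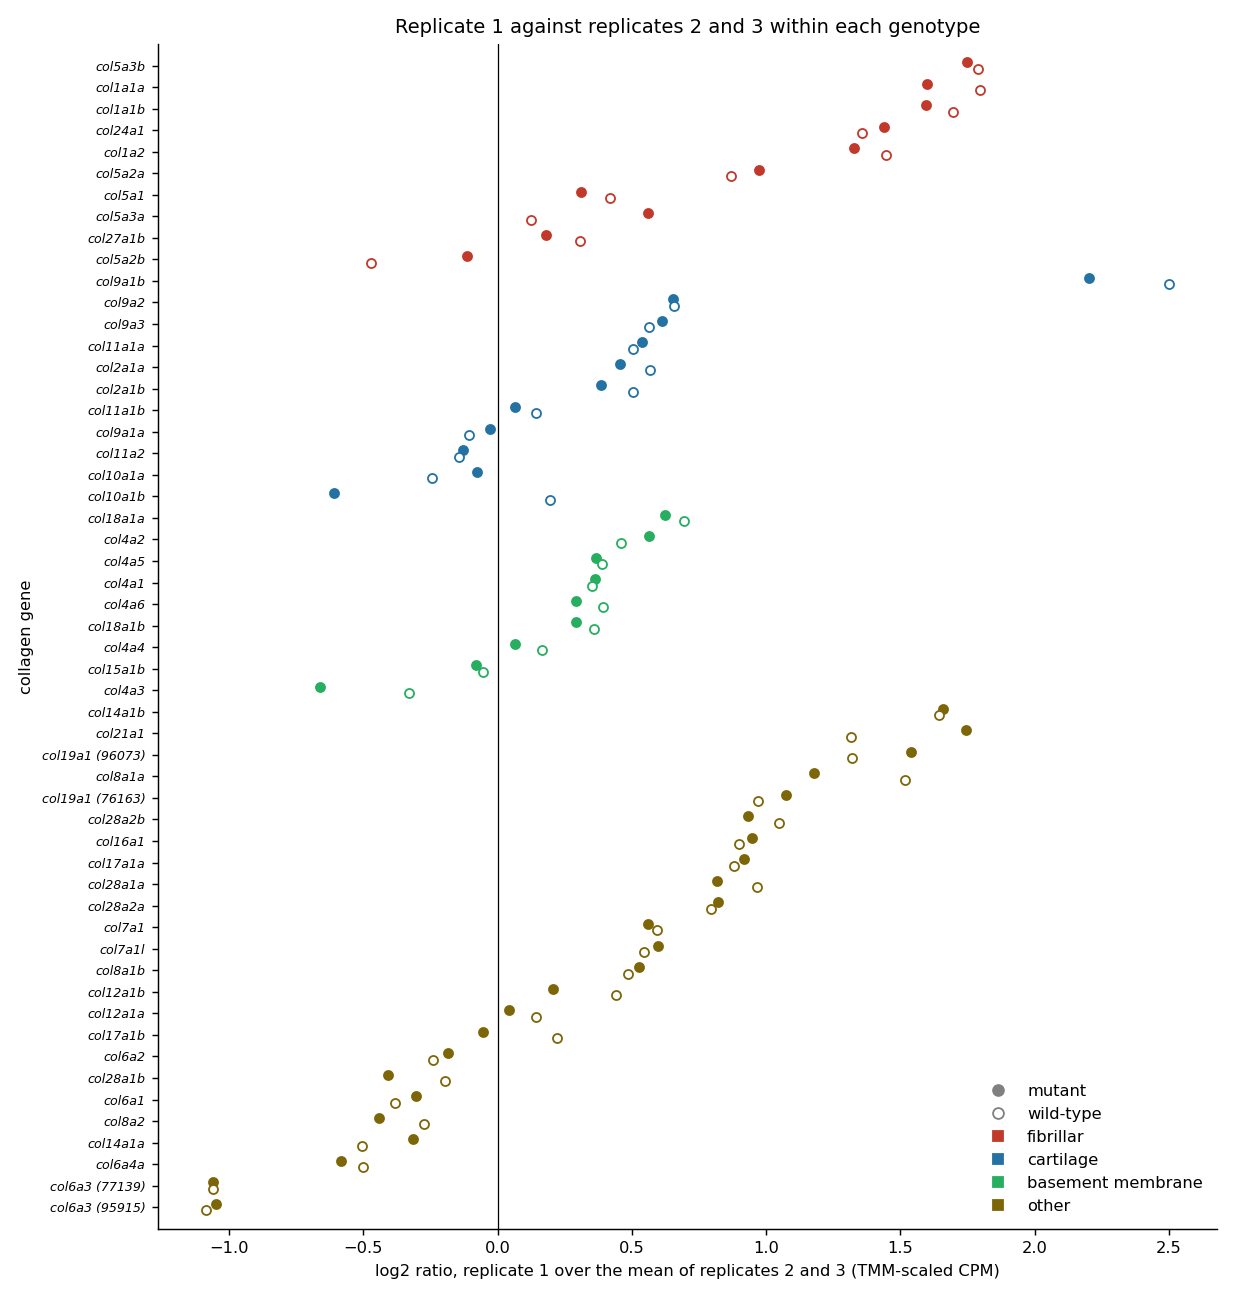
Log2 ratio of replicate 1 to the mean of replicates 2 and 3 (horizontal axis) for each collagen gene (rows, coloured by type), filled circles for mutants and open circles for wild-type heads. The genotypes lie close together in most rows; fibrillar genes reach 1.80 and col9a1b 2.50, while both col6a3 identifiers lie near -1.06.

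Other markers moved with replicate number. Epidermis markers (14 of 14 tested) summed to 30670, 16714 and 15605 CPM in mutant replicates 1, 2 and 3 and to 30528, 15606 and 15068 CPM in wild-type replicates. Notochord and floor plate markers (13 tested) summed to 1087, 642 and 718 CPM in mutants and 1073, 725 and 663 CPM in wild-type heads. For the counts of called markers here, 28.2% of all genes were called higher in replicate 1 and 29.4% lower. Of 13 neuron markers, 10 were called in edgeR and all 10 were lower in replicate 1 (76.9%). Chondrocyte markers (15 tested) summed to 2384, 2616 and 3115 CPM in mutants and 2305, 2793 and 2917 CPM in wild-type heads, but they did not move one way: with TMM factors 7 were called higher in replicate 1 and 8 lower. Among them matn3b, a cartilage matrilin gene, had a log2 ratio of 2.85 and the aggrecan gene acana one of -1.47. Inner ear markers (11 tested) stood at 270, 301 and 331 CPM in mutants and 309, 314 and 334 CPM in wild-type heads, with 2 called higher in replicate 1 and 4 lower. Fin fold markers (13 tested) summed to 695, 653 and 606 CPM in mutants and 748, 616 and 569 CPM in wild-type heads. Of these, 5 were called higher in replicate 1 and 4 lower. Lens markers (14 tested) summed to 11027, 8258 and 7260 CPM in mutants and 10462, 7738 and 7555 CPM in wild-type heads, with 8 called higher and 4 lower. Tendon and fibroblast, osteoblast and endothelium markers had sums of 884 to 985, 102 to 110 and 295 to 315 CPM across all libraries. These sums combine members of opposite direction: 4 were called higher in replicate 1 and 4 lower of 11 tendon and fibroblast markers, 3 higher and 4 lower of 10 osteoblast markers, and 6 higher and 5 lower of 14 endothelium markers. The part of these marker differences, or of library depth, in the collagen values was not tested.

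Within replicates 2 and 3 the genotypes crossed. The 3 pairs of like-numbered libraries gave median log2 ratios of mutant to wild-type over the 54 genes of 0.01, 0.18 and -0.14 for replicates 1, 2 and 3, against 0.00, 0.00 and -0.01 over all genes. Mutants were higher in 31 collagen genes in the replicate 1 pair (57.4%, against 50.0% of all genes) and in 35 in the replicate 2 pair (64.8%, against 49.5%). They were higher in 13 in the replicate 3 pair (24.1%, against 48.0%), where all 10 fibrillar and all 9 basement membrane genes were lower. The combination of higher in the replicate 2 pair and lower in the replicate 3 pair held for 30 of 54 (55.6%, against 26.1%).

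By a step of at least 0.25 in log2 each way, chosen after the values had been seen, 12 collagen genes crossed in this direction (22.2%, against 2.54% of all genes) and 0 crossed in the reverse direction (2.88% of all genes). They were col1a1a, col1a1b, col1a2, col5a1 and col5a3b of the fibrillar group, col11a1b of cartilage and col18a1a of basement membranes. The remaining 5 were col7a1, col12a1a, col12a1b, col14a1b and col16a1, of which types XII, XIV and XVI attach to fibrils. The median log2 ratio of the 3 type I genes was 0.02, 0.78 and -0.53 in the replicate 1, 2 and 3 pairs. For col1a1a in the replicate 2 pair, counting error alone had a standard error of 0.00746 in log2. That value leaves out the spread between libraries. The blocked fit, which includes that spread, gave a standard error of 0.299. It belongs to the col1a1a log2 fold change over all 3 pairs, so it is not the error of a single pair. Each ratio rests on 1 library per genotype, so no test between replicates applies to it. The labels do not state that like-numbered libraries are pairs, so the crossing depends on that assumption.

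Some genes crossed without being high in replicate 1, and others were high in replicate 1 without crossing. The fibril-associated gene col12a1a had 245, 301 and 187 CPM in mutants and 245, 193 and 254 CPM in wild-type heads, and it was not called across replicate numbers (edgeR adjusted p = 0.837). By contrast col17a1a, called across replicate numbers, had log2 ratios of mutant to wild-type of only 0.12 and -0.09 in the replicate 2 and 3 pairs. For col9a1b these were 0.03 and 0.43. The type VI genes crossed nowhere by the 0.25 step, with medians of -0.16 and 0.05 in the replicate 2 and 3 pairs.

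**Figure D4:**
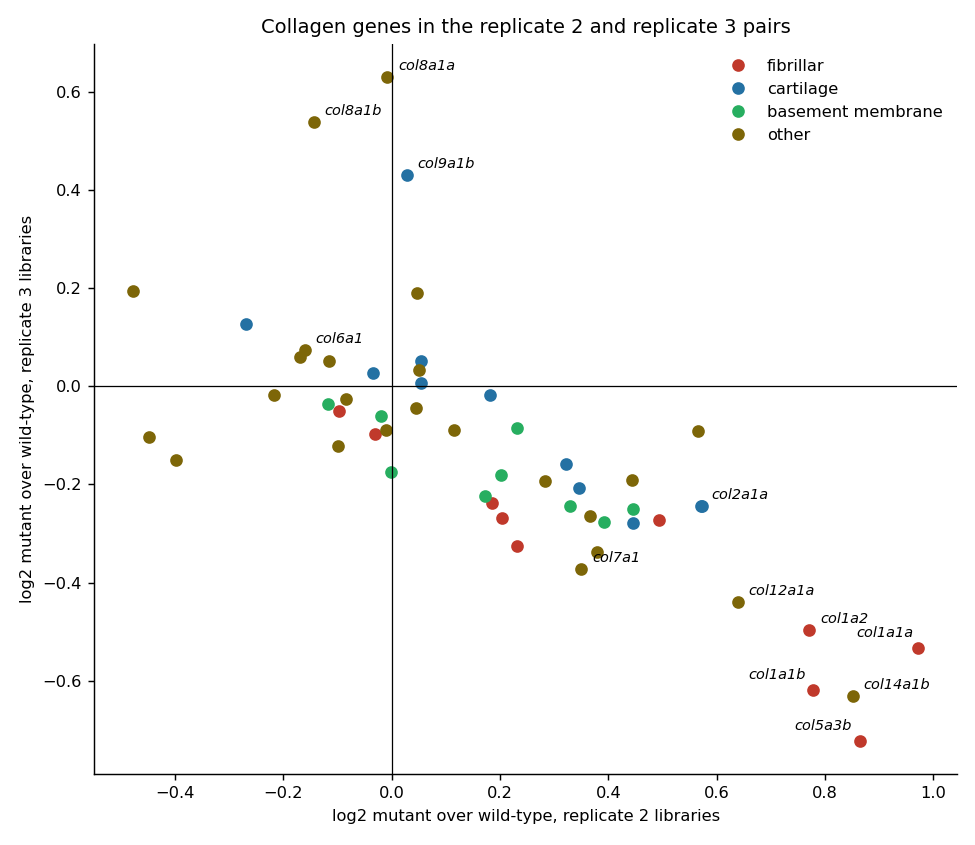
Log2 ratio of mutant to wild-type in the replicate 2 libraries (horizontal axis) and in the replicate 3 libraries (vertical axis), 1 point per collagen gene, coloured by type; the col2a1b point lies under that of col2a1a. The lower right area, below and right of the zero lines, holds 30 of 54 genes, with col1a1a, col1a1b, col1a2, col5a3b and col14a1b farthest out.

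Over the 12 marker lists the median log2 ratio of mutant to wild-type lay between -0.27 and 0.10 in the replicate 2 pair and between -0.08 and 0.21 in the replicate 3 pair. The median log2 ratio of the chondrocyte markers was -0.17 in the replicate 2 pair and 0.18 in the replicate 3 pair, that of skeletal muscle -0.27 and 0.15, and that of tendon and fibroblast markers -0.02 and 0.04. For epidermis markers it was 0.06 and 0.05, and for osteoblast markers 0.02 and -0.03. For neuron markers it was 0.10 and -0.08, and for lens markers 0.08 and -0.06. Of the neuron markers 61.5%, and of the lens markers 57.1%, were higher in mutants in the replicate 2 pair and lower in the replicate 3 pair, near the 55.6% of the collagen genes, though 0 of either list crossed by the 0.25 step. Of the collagen partner lists, 2 of 25 fibril-binding genes (fbn2b and ognb) and 2 of 16 basement membrane partners (lama1 and lama2) crossed by that step. So did 2 of 18 degradation genes (reck and timp4.1) and 1 of 25 regulators (sp7). The shares were 8.0%, 12.5%, 11.1% and 4.0%, against 2.54% of all genes. In the remaining partner lists 0 genes crossed in this direction. These were chain hydroxylation and folding (21 genes), export (14), procollagen processing (12), lysyl oxidases (9) and receptors (15). In the reverse direction 2 degradation genes and 1 lysyl oxidase gene crossed (2.88% of all genes did). The gene ognb was low, with a mean of 0.31 CPM in mutants and 0.30 CPM in wild-type heads. The laminin chain gene lama1 had 28.3, 33.8 and 20.6 CPM in mutants and 29.0, 21.2 and 25.6 CPM in wild-type heads. The gene reck, an inhibitor of matrix proteases, had 145, 65.2 and 46.5 CPM in mutants and 150, 49.9 and 56.2 CPM in wild-type heads, so that it was high in replicate 1 (edgeR adjusted p = 0.00225) and crossed, like the type I genes. In contrast sparc, which binds collagen fibrils, had 1521, 952 and 880 CPM in mutants and 1535, 927 and 864 CPM in wild-type heads, high in replicate 1 but not crossing. The choice of these partners came after seeing their values. How the crossing arose was not tested.

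Ratios between neighbouring collagen genes were nearly fixed for some pairs and varied for others. By the RefSeq annotation of assembly GRCz12tu, consulted for gene order alone, 6 pairs of collagen genes lay within 3 genes of each other. The ratio of col4a5 to col4a6, head-to-head collagen IV genes in vertebrates, varied 1.11-fold over the 6 libraries, that of col6a1 to col6a2 1.14-fold and that of col4a1 to col4a2 1.23-fold. The ratio varied 1.34-fold for col16a1 and col9a2 and 1.83-fold for col4a3 and col4a4, both of which are low genes. The col4a5 gene had 546, 454 and 394 CPM in mutants and 565, 403 and 461 CPM in wild-type heads, and col4a6 had 274, 252 and 198 CPM in mutants and 284, 201 and 234 CPM in wild-type heads. Both were highest in the replicate 1 libraries and lowest in mutant replicate 3. For col6a2 the values were 186, 205 and 218 CPM in mutants and 186, 231 and 209 CPM in wild-type heads, lowest in both replicate 1 libraries as in col6a1.

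The remaining neighbours differed. The gene named col19a1 lay near col9a1b. Gene order was looked up by name, so the position of each col19a1 identifier was not determined. Under ENSDARG00000076163, col19a1 had 13.2, 6.41 and 6.11 CPM in mutants and 13.3, 7.46 and 6.19 CPM in wild-type heads, and like col9a1b it was highest in both replicate 1 libraries. Under ENSDARG00000096073 it had 3.26, 1.27 and 0.958 CPM in mutants and 3.09, 1.78 and 0.835 CPM in wild-type heads. The gene col16a1 had 150, 92.4 and 65.6 CPM in mutants and 143, 71.0 and 82.9 CPM in wild-type heads, while its neighbour col9a2 had 1146, 792 and 669 CPM in mutants and 1084, 699 and 677 CPM in wild-type heads. The low gene col4a4 had 7.51, 8.29 and 6.24 CPM in mutants and 7.55, 6.08 and 7.42 CPM in wild-type heads.

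Paralogs from the fish genome duplication, named a and b, parted more often. Over 14 such pairs the ratio of the paralogs varied 2.14-fold at the median, from 1.09-fold for col2a1a and col2a1b to 7.97-fold for col9a1a and col9a1b. It varied 1.16-fold for col1a1a and col1a1b, 3.12-fold for col5a2a and col5a2b, 4.47-fold for col5a3a and col5a3b and 6.19-fold for col14a1a and col14a1b. Beside the values of col14a1b above, col14a1a had 25.9, 35.7 and 29.1 CPM in mutants and 23.5, 36.0 and 31.0 CPM in wild-type heads, lowest in replicate 1 for both genotypes. Ratios of low paralogs also carry counting error, and reads of near-identical copies could have been shared between them.

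Genes that modify, export, crosslink and bind collagens gave 0 calls in edgeR for mutant against wild-type, with or without the block. In both fits edgeR called 0.0% of all genes, so the 0 is not particular to these lists. The lists were chosen with earlier results of these data known. Of 21 genes of chain hydroxylation and folding, 4 were higher and 17 lower in mutants, with a median log2 fold change of -0.04 in the blocked fit. The chaperone gene serpinh1b (Hsp47) had 144, 95.1 and 169 CPM in mutants and 166, 97.7 and 214 CPM in wild-type heads, a log2 fold change of -0.20 (SE 0.06). The prolyl 4-hydroxylase gene p4ha1b had 39.4, 22.5 and 38.6 CPM in mutants and 43.9, 23.99 and 43.4 CPM in wild-type heads, a log2 fold change of -0.14 (SE 0.045). Both were lower in mutants within each replicate number and overlapped between groups, with an edgeR adjusted p of 0.939 in the blocked fit. Of the 21 genes, 12 (57.1%) were on the same side in all 3 pairs of like-numbered libraries, against 26.9% of all genes.

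The gene that stood out in these lists was loxl2b, a lysyl oxidase that crosslinks collagen and elastin. It had 17.2, 27.2 and 26.7 CPM in mutant replicates 1, 2 and 3, against 30.8, 44.5 and 39.9 CPM in wild-type replicates, so every mutant library lay below every wild-type library. The same held for 0.945% of all genes, and for 1 of the 25 regulators of collagen genes. The log2 fold change of loxl2b in the blocked edgeR fit was -0.70 (SE 0.06) with an adjusted p of 0.192. DESeq2 with the block gave an adjusted p of 1.03e-09. Both values rest on the block, whose pairing the labels do not state. Without the block edgeR gave -0.695 (SE 0.233) and no call. DESeq2 without the block, and limma-voom with or without it, called 0 of all genes tested. Of the 9 lysyl oxidase genes, 5 were higher and 4 lower (median log2 fold change 0.01). Another, loxl4, had 17.1, 36.1 and 31.7 CPM in mutants and 15.1, 29.4 and 27.3 CPM in wild-type heads, a log2 fold change of 0.24 (SE 0.049, edgeR adjusted p = 0.841).

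The other lists lay near 0, and the values that follow are blocked log2 fold changes with no call in edgeR. That fit called 0.0% of all genes. Of 14 genes on the export list 7 were higher and 7 lower. Among them creb3l1, a transcription factor of the secretory pathway, was at 0.25 (SE 0.058). The listed gene tango2, for which a role in collagen export is not established, was at 0.11 (SE 0.048). Of 12 procollagen processing genes 7 were higher and 5 lower, with the propeptidase genes adamts3 at -0.18 (SE 0.092) and tll1 at -0.15 (SE 0.087). The fibril-binding proteoglycans and glycoproteins had 17 higher and 8 lower of 25, including fn1a (fibronectin) at -0.09 (SE 0.042) and tnxba (tenascin-X) at 0.09 (SE 0.046). Basement membrane partners had 4 higher and 12 lower of 16, including the laminin chain genes lamc3 at -0.11 (SE 0.049) and lamb1b at -0.11 (SE 0.059).

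Collagen receptors had 5 higher and 10 lower of 15, with the integrin chain genes itgb1b.1 at -0.05 (SE 0.043) and itga11b at 0.16 (SE 0.149). Degradation genes had 11 higher and 7 lower of 18, with the gelatinase genes mmp9 at 0.19 (SE 0.085) and mmp2 at 0.05 (SE 0.041). Regulators of collagen genes had 14 higher and 11 lower of 25, with runx2b, a transcription factor of bone, at -0.21 (SE 0.095) and ctgfb, a connective tissue growth factor, at -0.11 (SE 0.061). The medians of these 7 lists lay between -0.04 and 0.02.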

How the data were processed

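The table that the authors deposited gives raw counts for 32520 Ensembl genes in 6 libraries. The submitters' processing notes list the build GRCz11 and the tools STAR 2.7.3, Subread, featureCounts 1.6.4 and DESeq2 but not what each did, and how strand was handled in counting is not known here. The other deposited table gives each gene's normalized signal, equal to the counts divided by 1 size factor per library (largest difference 0.164), and was not used in tests.

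Counts were compared in edgeR 4.0.16 (R 4.3.3) with TMM factors, the filterByExpr filter by genotype (24765 genes kept) and a 2-sided quasi-likelihood F test with robust dispersion, Benjamini-Hochberg adjustment over all genes tested and a threshold of 0.05. The genotype fit had no other term, and the replicate test had genotype as its covariate. A fit that adds replicate number as a block stands beside it. Replicate numbers come from the labels, which do not state a pairing. They were taken as pairs because deviations of like-numbered libraries from their genotype means correlated at 0.863, 0.579 and 0.744. Mutant replicate 2 also correlated with wild-type replicate 3 at 0.365, and mutant replicate 3 with wild-type replicate 2 at 0.418. With replicate 1 apart in both genotypes, deviations of replicates 2 and 3 correlate positively whichever way they are paired. Pairing replicates 2 and 3 by number is therefore an assumption. Log2 CPM ratios used a prior count of 2. Alternatives were DESeq2 1.42.0, limma-voom (limma 3.58.1), other factors, filters and thresholds, and leaving out libraries. No library was a duplicate of another (chi-square per gene of at least 4.38 for every comparison of libraries). The procedure was also run on counts simulated from the blocked fit. Those counts took the pairing as given, so they cannot test it.

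The collagen genes, their types, and 21 lists of partner and marker genes (324 of 341 names matched) were chosen with earlier results of these data known. Values in every library are given for the collagen genes with the smallest p, the highest CPM or the extreme replicate 1 ratio in their type, for neighbouring genes, and for up to 2 genes of each partner list; col1a2, col9a1a, col12a1a, col14a1a and some partner and marker genes were added after their values had been seen.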

Additional observations from a re-analysis of the deposited data

How the results depend on the processing

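The count of 0 collagen genes called between mutant and wild-type was the same under all 19 alternatives, the replicate block included (0 with it, 0 without). Over all genes the count was 17 in DESeq2 with the replicate block and 2 in edgeR with the block and without replicate 2, against 0 otherwise; the cause was not tested. Across replicate numbers, leaving out a pair of libraries gave 6 to 16095 genes and 0 to 44 collagen genes past the threshold, the lowest without replicate 1. Leaving out 1 library at a time, log2 fold changes without the block ran from -0.60 to 0.96 for col1a1a, -0.019 to 0.35 for col2a1a, -0.55 to 0.015 for col6a3 (ENSDARG00000095915) and -0.32 to 0.12 for col7a1l. With the replicate block and without replicate 2, col1a1a was at -0.25 and col2a1a at -0.093. Of the other collagen genes refitted this way, col8a1b, col10a1a, col10a1b and col27a1b kept their sign. The median over collagen genes ran from -0.17 (without mutant replicate 1) to 0.17. The crossing count of 12, with settings added after the data had been seen, was 25 at a step of 0.1 (9.48% of all genes) and 4 at 0.5 (0.452%), 12 with RLE factors and 11 with library totals. A minimum of 100 counts in at least 3 libraries kept 53 collagen genes. Every collagen gene had counts in every library. The intervals rest on 3 libraries per genotype, and they lay within 2-fold for 54 collagen genes with the replicate block and for 39 without it.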

Other observations

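Several partners of collagen differed between replicate numbers in a different order from the type I genes. Within the chondrocyte markers, of which 7 were called higher and 8 lower in replicate 1 with TMM factors, the aggrecan genes acana and acanb, which encode the large proteoglycan of cartilage, were lowest in replicate 1: acana had 53.6, 132 and 159 CPM in mutant replicates 1, 2 and 3 and 52.8, 150 and 151 CPM in wild-type replicates (edgeR adjusted p across replicate numbers 1.4e-05). On the other side were matn3a and matn3b, cartilage matrilin genes, with log2 ratios of replicate 1 to replicates 2 and 3 of 2.24 and 2.85, against -1.47 for acana and -0.97 for acanb. The tenascin-X gene tnxba had 26.8, 139 and 155 CPM in mutants and 23.4, 137 and 148 CPM in wild-type heads, a direction shared with the type VI genes and opposite to col1a1a. The choice of these genes came after seeing their values.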
